A study of Mus musculus with 2 samples.

Results

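Epithelial-rich spots are the positions on a tissue slide where genes of epithelial cells were read at their highest level in mouse pancreatic tumors. A spot is a small barcoded area that may cover several cells, so a rich spot is a patch of tissue and not a single tumor cell. Spots were eligible with at least 10000 unique molecular identifiers (UMIs, each 1 captured molecule) and under 2% of UMIs from 5 acinar genes, Cpa1, Ctrb1, Prss2, Pnlip and Cela2a. Within each library, the 10% of eligible spots with the highest summed level of Krt19, Krt8, Krt7, Epcam and Cdh1 were called rich, and the 10% with the lowest sum were called poor. This gave 134 rich spots of 1349 eligible ones in the library labelled KPC-shZEB1, and 285 of 2857 in the library labelled KPC-shV, together 419 of 5772 spots.

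The tumors were allografts grown in the pancreas of mice injected with KPC cells, a mouse pancreatic cancer line from a genetically engineered animal with a Pdx-1-Cre driver. The cells carried either a short hairpin RNA against Zeb1 (KPC-shZEB1) or the control vector (KPC-shV), both as stable lentiviral lines, so both groups share the genotype of the parent line. The study asked how Zeb1 KD changes the tumor and its immune surroundings, and its text gives gemcitabine for these tissues, which the labels do not name. The study lists 2 tumors per group, whereas 1 library of each label was analyzed here, with 140493626 UMIs in 2220 spots labelled KPC-shZEB1 and 172059528 UMIs in 3552 spots labelled KPC-shV. The host strain was not singled out for these tumors. With 1 library per label no difference could be tested, spots of 1 slide are not replicates, and the label, the tumor and the library cannot be told apart.

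In an epithelium, keratins 7, 8 and 19 form the filament network of simple and ductal cells, E-cadherin (Cdh1) and Epcam hold neighbors together, and tight junctions seal the apical side. Zeb1 is a zinc finger repressor that binds E-box sequences in promoters of epithelial genes and is known for epithelial-mesenchymal transition, in which cells lose this program. Pancreatic carcinomas of this kind commonly mix gland-forming areas with a dense stroma of fibroblasts, vessels and immune cells, and oxygen supply is often low in parts of them.

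The promoters of the genes that define the rich spots show where such E-boxes lie. Of the 5 genes of the rule, Krt7, Krt8 and Epcam had a window in the RefSeq promoter table (build GRCm38.p6), and each of these windows held the E-box CACCTG or its other strand, CAGGTG. Krt19 and Cdh1 were not matched. The windows reach from 250 bases before to 50 bases after the start site. The 250 bases before the start are given 5′ to 3′ on the strand of the gene, with the E-box in capitals, for these 3 genes and for Lgals4, whose level was among those most different between rich and poor spots:
Krt7: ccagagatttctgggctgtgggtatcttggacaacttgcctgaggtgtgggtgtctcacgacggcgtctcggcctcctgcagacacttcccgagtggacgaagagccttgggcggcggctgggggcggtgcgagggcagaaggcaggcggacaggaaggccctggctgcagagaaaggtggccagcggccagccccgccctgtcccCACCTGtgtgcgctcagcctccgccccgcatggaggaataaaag
Krt8: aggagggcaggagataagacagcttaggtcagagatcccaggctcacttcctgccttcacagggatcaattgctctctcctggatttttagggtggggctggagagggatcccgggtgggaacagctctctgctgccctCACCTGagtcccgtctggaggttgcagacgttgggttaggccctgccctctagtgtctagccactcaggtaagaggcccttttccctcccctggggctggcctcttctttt
Epcam: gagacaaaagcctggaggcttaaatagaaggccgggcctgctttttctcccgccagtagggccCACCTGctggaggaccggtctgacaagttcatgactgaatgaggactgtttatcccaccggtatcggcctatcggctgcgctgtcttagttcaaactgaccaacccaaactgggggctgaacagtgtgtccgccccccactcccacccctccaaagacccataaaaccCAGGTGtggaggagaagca
Lgals4: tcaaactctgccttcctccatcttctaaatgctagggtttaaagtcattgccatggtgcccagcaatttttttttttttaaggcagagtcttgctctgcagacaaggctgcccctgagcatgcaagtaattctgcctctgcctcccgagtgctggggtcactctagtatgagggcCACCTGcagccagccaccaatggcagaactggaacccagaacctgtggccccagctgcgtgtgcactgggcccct
They lie at chr15:101412153-101412402 (+ strand, Krt7), chr15:102004343-102004592 (- strand, Krt8), chr17:87635729-87635978 (+ strand, Epcam) and chr7:28833544-28833793 (+ strand, Lgals4). The E-box begins 44 bases before the RefSeq start of Krt7, 111 bases before that of Krt8 and 75 bases before that of Lgals4. These starts differ from those of the GENCODE gene spans given below. The Krt7 window lies inside the span of its gene (101411043 to 101430313), and the Krt8 window overlaps that of its gene (101996698 to 102004482). Epcam holds a pair, 187 and 19 bases before its start. The same 6 letters were found in 20.2% of all 32851 windows of the table, so a match alone is common and does not show binding.

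The motif was more frequent among the genes that were high in rich spots. Of 701 genes with a window that were at least 2-fold higher in rich than in poor spots of both libraries, 271 (38.7%) held CACCTG or CAGGTG. The share was 21.9% of the 1054 such genes that were at least 2-fold lower in both libraries, and 20.7% of the 8038 genes with a window that were measured in both. For another E-box, CAGCTG, which reads the same on both strands and cannot coincide with CACCTG, the shares were 21.4% of the higher genes, 25.1% of the lower genes and 17.7% of all measured ones. The AP-1 motif TGANTCA, sought on both strands, was in 12.6%, 8.44% and 6.68%, respectively. The median GC content of the windows was 60% for the higher genes, 58.7% for the lower genes and 61% for all measured genes. These shares are descriptions of gene sets taken from these same counts, with rich spots chosen for epithelial genes. They are not read as a sign of Zeb1 activity, and whether Zeb1 bound any of these sites was not measured.

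Levels are given in CPM, the UMIs of a gene or gene list per 1000000 UMIs of a group of spots. Ratios are on the log2 scale. Exact 95% intervals cover counting error only, not the spread between tumors. A gene was measured in a comparison if it reached 10 CPM in the higher group of spots, and it was counted as higher or lower if the groups differed by at least 2-fold. A gene low in 1 group entered through the other, which favors a large ratio, so counts over lists of scarce genes are not read as support, and summed levels cover all members found, measured or not. The rich spots held 9339797 UMIs in the KPC-shZEB1 library (median 67209 per spot) and 13697287 in the KPC-shV library (median 49190). The poor spots were shallower, with medians of 42493.5 and 22906 UMIs. The libraries share 1718 spot barcodes, none with the same UMI total, and 4 of these were rich in both.

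The summed level of the 5 rule genes fell off gradually across eligible spots, and the rich spots are the upper end of a continuous range. In the KPC-shZEB1 library the last rich spot stood at 10871 CPM and the first spot outside at 10860 CPM. In the KPC-shV library these were 9433 and 9431 CPM. At the low end, poor spots reached up to 575 CPM in the first library and 1878 CPM in the second, so the poor spots of KPC-shV kept more of the 5 genes. A further 21 spots of KPC-shV were at or above the limit for rich spots but had fewer than 10000 UMIs and were left out, and no spot of KPC-shZEB1 was left out in this way.

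**Figure D1:**
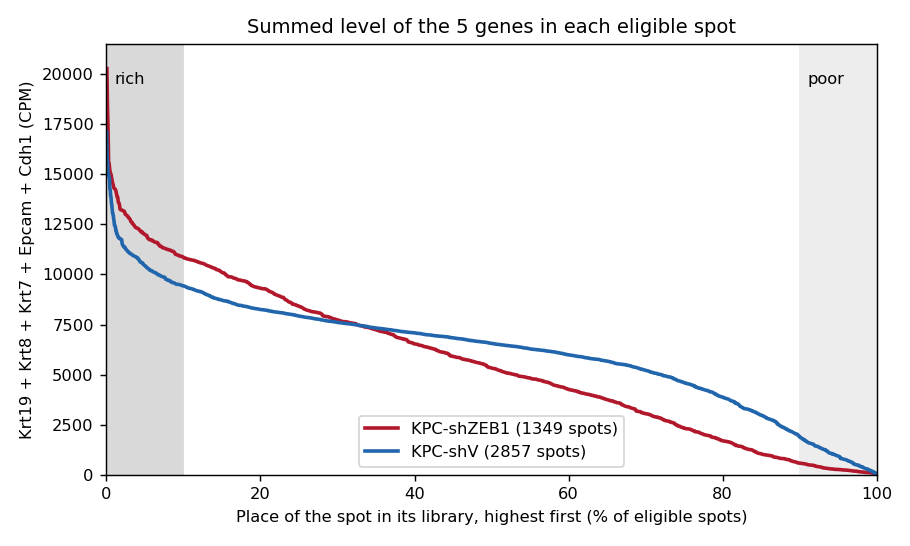
Summed level of Krt19, Krt8, Krt7, Epcam and Cdh1 (vertical axis, CPM) in each eligible spot, ordered from highest to lowest within its library (horizontal axis, percent of eligible spots), with 1 line per library and the rich and poor spots shaded. The lines fall without a step at either limit, and the KPC-shZEB1 line starts higher (20272 CPM against 17114 CPM) and lies lower over the lower part of the range.

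The 5 genes were selected on, so their contrast between rich and poor spots describes the choice and is no finding. Krt7 (ENSMUSG00000023039, chromosome 15 of GRCm38, 101411043 to 101430313) had 5188 CPM in rich spots and 82.3 CPM in poor spots labelled KPC-shZEB1, and 4798 and 366 CPM in those labelled KPC-shV. Single rich spots ran from 1506 through a median of 5202 to 10456 CPM in the first library and from 2240 through 4894 to 9915 CPM in the second, so the 2 sets of rich spots overlapped over most of their range. For Krt8 (chromosome 15, 101996698 to 102004482) the rich spots held 1934 and 1758 CPM, and for Epcam (chromosome 17, 87635979 to 87651129) they held 1792 and 1703 CPM. Krt8, Krt7 and Epcam therefore stood within a log2 ratio of 0.14, 0.11 and 0.07 between the libraries, and that of Epcam turned to -0.02 with the highest 20% of spots.

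The levels of Krt19 and Cdh1, which the rule also used, are likewise given as a description. Krt19 (chromosome 11, 100140810 to 100148665), the keratin of the ductal tree, was at 2516 CPM in rich spots labelled KPC-shZEB1 and 1880 CPM in those labelled KPC-shV, a log2 ratio of 0.42. Cdh1 (chromosome 8, 106603351 to 106670246) was at 921 and 631 CPM, a log2 ratio of 0.55. Single rich spots held 391 to 1774 CPM of Cdh1 (median 919) in the first library and 77.3 to 1201 CPM (median 606) in the second, and 89.6% of the rich spots labelled KPC-shZEB1 lay above the KPC-shV median. The sum of the 5 genes was 12351 CPM against 10770 CPM, a log2 ratio of 0.20.

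Zeb1 itself, the target of the hairpin, was at similar low levels in rich spots of both labels. It had 76 UMIs in rich spots labelled KPC-shZEB1, or 8.14 CPM (95% interval 6.41 to 10.2), and 91 UMIs in rich spots labelled KPC-shV, or 6.64 CPM (5.35 to 8.16). The log2 ratio was 0.29, so the level was not lower in the library labelled as KD. Its 95% interval (-0.17 to 0.75), which covers counting error only, reached no further down than -0.17. Over all eligible spots Zeb1 was again higher under the KD label, at 15.3 CPM (14.5 to 16.2) against 12.7 CPM (12.1 to 13.2). Over all spots, with those that were not eligible, the order was the reverse and as labelled, at 10.8 CPM (10.3 to 11.3) in KPC-shZEB1 against 12.4 CPM (11.9 to 13.0) in KPC-shV. The direction thus depended on which spots were counted. Spots left out for their acinar RNA were 858 of 2220 in KPC-shZEB1 and 305 of 3552 in KPC-shV. Their part in this reversal was not tested. Poor spots held more of it, 24.7 and 22.1 CPM. Stromal cells also express Zeb1, and how much of these UMIs came from tumor cells was not tested. Directions between libraries below refer to the labels, since Zeb1 was not lower under the KD label in the rich spots.

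The transcriptome of the rich spots beyond the 5 genes was compared with that of the poor spots of the same slide. Of 10508 measured genes, 1518 (14.4%) were at least 2-fold higher and 1820 (17.3%) at least 2-fold lower in rich spots of the KPC-shZEB1 library. In the KPC-shV library 1288 of 10625 (12.1%) were higher and 1996 (18.8%) lower. Counts of list members in rich over poor spots stand against these shares. Among the 10168 genes measured in both, 935 were higher in both, which is 64.8% of the higher genes of KPC-shZEB1 and 77.3% of those of KPC-shV. The number lower in both was 1442, or 88.1% and 78.9%. Across these genes the log2 ratios of the 2 libraries had a Pearson r of 0.91 and a Spearman rho of 0.87, with the gene panel and the choice of spots in common. In the KPC-shZEB1 library the median gene with at least 100 UMIs was itself 0.19 higher in rich spots (0.07 in the KPC-shV library), and each ratio of that library is smaller by this amount relative to the median gene.

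Cell junction and polarity genes were high in the rich spots as a group. The 18 tight junction genes listed summed to 3409 against 434 CPM in poor spots of KPC-shZEB1 and 3349 against 708 CPM in KPC-shV. All 17 measured ones were at least 2-fold higher in both libraries, though members scarce in poor spots passed the filter through the rich spots. Their median log2 ratio was 3.42 in KPC-shZEB1 and 2.58 in KPC-shV against 0.16 and 0.04 over all measured genes. Claudin 7 (Cldn7), a barrier-forming claudin of simple epithelia, reached 806 CPM in rich spots and 43.0 CPM in poor spots labelled KPC-shZEB1. Occludin (Ocln), a strand protein, had a log2 ratio of 4.64 there and 3.48 in KPC-shV. Of 14 adherens junction and desmosome genes, 11 were higher and none lower in each library. Their sum was 2734 against 712 CPM in KPC-shZEB1 and 3358 against 1030 CPM in KPC-shV. Desmoplakin (Dsp), which anchors keratin filaments at desmosomes, was at 341 against 12.7 CPM and at 295 against 32.0 CPM. P-cadherin (Cdh3) and the catenin Ctnnb1 were within 2-fold in both, at 0.38 and 0.75 in KPC-shZEB1.

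Transcription and splicing regulators of epithelial cells followed the same pattern. The 22 listed genes summed to 2416 CPM in rich against 208 CPM in poor spots of KPC-shZEB1, and to 2421 against 329 CPM in KPC-shV. Of 16 measured genes in KPC-shZEB1, 14 were higher and 1 was lower, and of 17 in KPC-shV, 15 were higher and none was lower. Members scarce in poor spots passed the filter through the rich spots. Elf3, an epithelial Ets factor, was at 712 CPM in rich and 19.3 CPM in poor spots of the first library, and at 887 and 42.4 CPM in the second. Every one of the 134 rich spots labelled KPC-shZEB1 held more Elf3 than any poor spot of that slide. The spots were chosen for epithelial genes, and the share of all genes without such overlap is not given. Hnf4a, a nuclear receptor of gut and liver epithelium, had a log2 ratio of 5.83, and the splicing factor Esrp1, which drives epithelial isoforms, had 4.86. The member that was lower was Gata6, at 12.8 against 27.7 CPM.

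Genes of intestinal and surface epithelium stood out in size. Of 7 measured intestinal genes, 6 were higher in each library, and Lypd8, which encodes a surface protein of colonic epithelium, had the largest log2 ratio in both among genes that passed 50 CPM and kept their direction under each alternative for levels, 8.39 (95% interval 7.78 to 9.08) in KPC-shZEB1 and 6.58 (6.08 to 7.14) in KPC-shV. Over the alternatives for levels these ratios ran from 7.63 to 9.45 and from 2.82 to 8.33, the lowest with the highest and lowest 20% of spots of KPC-shV. The log2 ratio of the summed rule genes in KPC-shV likewise ran from 2.09 with 20% of spots to 4.57 with 5%. Lypd8 was uneven from spot to spot. It had a UMI in 87.3% of rich spots and 11.2% of poor spots labelled KPC-shZEB1, with a highest rich spot of 7860 CPM, and in 52.3% and 6.67% of those labelled KPC-shV, with a highest of 5285 CPM. Muc13, a membrane mucin, had log2 ratios of 7.09 and 5.23. Krt20, a keratin of intestinal and urothelial surface cells, was at 1401 against 10.5 CPM and at 757 against 43.9 CPM. Lgals4, a galectin of the digestive tract, had 6.48 and 4.64, and Ivl, a precursor of the cornified envelope, had 7.95 and 4.37. Among the genes with the 10 largest ratios were also Prap1 and Trim15 in both libraries, Tmigd1, Muc3 and Naip1 in KPC-shZEB1, and Muc4, Tmem45b, Lgals4, Elf3 and Krt19 in KPC-shV.

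Single members of several lists departed from the rest of their list. Of the intestinal list, the antimicrobial lectin Reg3g was lower in rich spots of KPC-shV by 2.19 on the log2 scale and at -0.40 in KPC-shZEB1. In the gastric mucus list, the protease Ctse and the claudin Cldn18 were high, with 553 and 519 CPM in rich spots labelled KPC-shZEB1, while the mucin Muc6 was at 0.75 CPM there. Tff2, a trefoil peptide of gastric mucus, was at 42.7 CPM in rich and 250 CPM in poor spots of that library but at 41.9 and 20.4 CPM in KPC-shV, where its log2 ratio turned from 1.04 to -1.11 with the highest and lowest 20% of spots. Mesothelin (Msln), which tumors of the pancreas also express, was at 509 and 316 CPM in rich spots, whereas the mesothelial regulator Wt1 was at 0.96 and 2.19 CPM. Slpi, a secreted protease inhibitor of mucosa placed in the surface list, was the exception there, at 43.9 CPM in rich and 3396 CPM in poor spots labelled KPC-shZEB1.

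Laminin-332 and EGFR ligands marked the rich spots as well. Lama3 and Lamb3 encode chains of laminin-332, the basement membrane protein under epithelia. The laminin-332 list summed to 2348 against 319 CPM in KPC-shZEB1 and 3935 against 748 CPM in KPC-shV. Of 9 measured genes of this list, 8 were higher in each library, led by Lama3 with 278 against 7.32 CPM in KPC-shZEB1 and 953 against 89.0 CPM in KPC-shV. Of the EGFR family list, 6 of 8 in KPC-shZEB1 and 7 of 8 in KPC-shV were higher. Its sum was 738 against 205 CPM in KPC-shZEB1 and 1212 against 285 CPM in KPC-shV. The receptor Erbb3 had log2 ratios of 4.18 and 3.31 and the ligand Tgfa 3.92 and 3.32, whereas Egfr itself was at -0.19 and -0.27.

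Most stromal and immune lists were higher in the poor spots, with the neutrophil list of KPC-shV as an exception (766 CPM in rich against 386 CPM in poor spots). All 13 fibroblast genes were at least 2-fold lower in rich spots of both libraries, with summed levels of 2089 against 26201 CPM in KPC-shZEB1 and 1606 against 35135 CPM in KPC-shV. Decorin (Dcn), a matrix proteoglycan, had log2 ratios of -5.96 and -5.93. No measured macrophage, T cell, B cell, endothelial or contractile gene of the lists was 2-fold higher in rich spots of either library, whereas Trbc1, outside the lists, was at 66.6 CPM in rich and 28.2 CPM in poor spots of KPC-shV. The genes for transcription factors of epithelial-mesenchymal transition summed to 76.4 against 345 CPM in KPC-shZEB1 and 75.3 against 481 CPM in KPC-shV, among them Zeb2 (20.6 against 138 CPM and 23.9 against 174 CPM) and Zeb1 (log2 ratio -1.60 and -1.74). Plasma cell genes summed to 73930 CPM in poor spots labelled KPC-shZEB1 against 551 CPM in rich spots, and to 2633 against 109 CPM in KPC-shV, with the antibody light chain gene Igkc as the most abundant. In bulk regions of this kind, fewer cells of a type and less RNA per cell cannot be told apart.

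**Figure D2:**
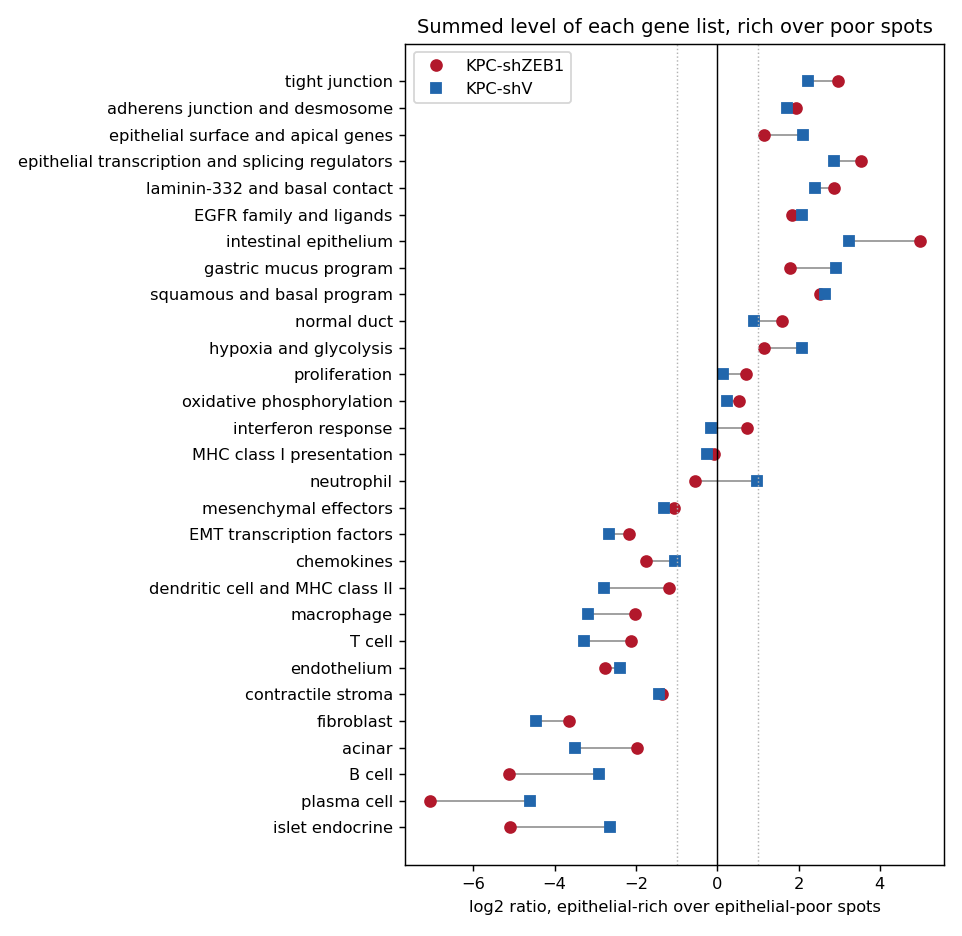
Log2 ratio of the summed level in rich over poor spots (horizontal axis) for 29 gene lists (vertical axis), with a circle for KPC-shZEB1 and a square for KPC-shV, a line joining both and dotted lines at 2-fold. Epithelial lists lie right of 0 and stromal lists left of it in both libraries, and the neutrophil list (-0.54 and 0.99) and the interferon list (0.72 and -0.15) lie on opposite sides.

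Other cell types remained in the rich spots at low levels, and acinar RNA differed between the slides. Spots were eligible only with under 2% of UMIs from 5 acinar genes, Ctrb1 among them. The rule itself therefore capped acinar RNA, and its low level is no finding. The acinar list was at 987 CPM in rich spots labelled KPC-shZEB1 and 171 CPM in those labelled KPC-shV, with the chymotrypsinogen gene Ctrb1 most abundant (279 and 54.1 CPM). The islet list was at 6.42 and 7.96 CPM. The 10 genes of other organs, such as the lens crystallin Cryaa, summed to 5.25 and 8.10 CPM in rich spots. In poor spots of KPC-shZEB1 and KPC-shV they summed to 10.5 and 14.0 CPM. The background of single genes was not measured. The part of acinar RNA in the differences between libraries was not tested.

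The rich spots of the 2 libraries were then set side by side. Of 9660 measured genes, 415 (4.3%) were at least 2-fold higher and 356 (3.69%) at least 2-fold lower in rich spots labelled KPC-shZEB1. Counts of list members between libraries stand against these shares. The median log2 ratio of measured genes was -0.05. Among epithelial lists, 1 of 17 regulators, Ovol1 (6.21 against 16.6 CPM), 2 of 17 tight junction genes, Cldn4 and Cldn6, 1 of 14 adherens junction and desmosome genes, Pkp1 (log2 ratio -1.30), and 1 of 6 squamous genes, Krt17 (-2.69), passed 2-fold lower. In the other direction, 3 of 18 surface and apical genes, Muc20 (1.27), Lgals4 (1.19) and Tmprss2 (1.17), and 1 of 7 gastric genes, Agr2 (1.84), passed 2-fold higher. The spots of both libraries were chosen for high epithelial genes, so nothing is read from their likeness. Cldn4, a claudin of simple epithelia, was at 61.8 CPM in rich spots labelled KPC-shZEB1 and 180 CPM in those labelled KPC-shV, a log2 ratio of -1.54. Most of these calls were lost among rich spots with under 3000 CPM of the hypoxia list, a limit chosen after the data were seen. There Cldn4 was at -0.70, Cldn6 at -0.54, Pkp1 at -0.15, Ovol1 at -0.45, Tmprss2 at 0.06 and Lgals4 at 0.08. Agr2 (1.20), Muc20 (1.21) and Krt17 (-1.59) stayed past 2-fold. At or over the limit, Ovol1 (-0.28) alone was within 2-fold. By the log2 ratio of the summed level of all members, the lists past 2-fold were T cell (2.70), acinar (2.53), plasma cell (2.34), MHC class II (2.12), interferon (1.43) and intestinal genes (1.17) in 1 direction and neutrophil (-1.55) and hypoxia genes (-1.38) in the other.

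**Figure D3:**
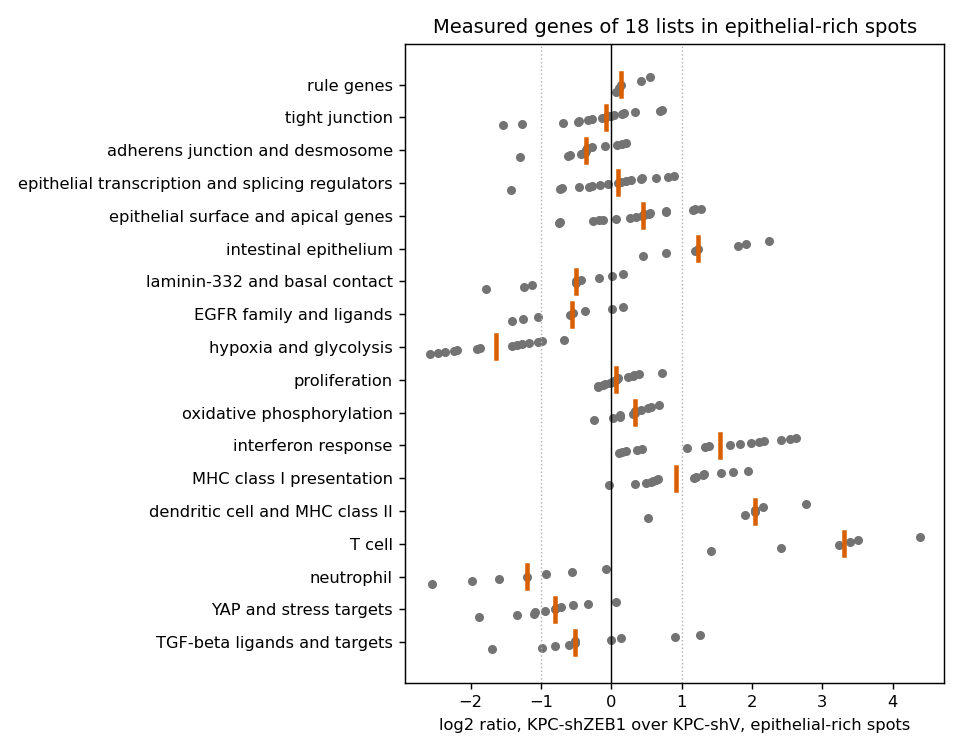
Log2 ratio between the rich spots of both libraries (horizontal axis, above 0 where KPC-shZEB1 is higher) for each measured gene (gray points) of 18 lists (vertical axis), with an orange bar at the median of each list and dotted lines at 2-fold. All hypoxia genes lie left of 0 (median -1.63), while the MHC class II (2.04) and interferon (1.54) medians lie right of 1. The T cell genes drawn reached 10 CPM only in KPC-shZEB1, so their place right of 1 follows in part from the filter.

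Genes that cells induce under low oxygen were higher in the rich spots labelled KPC-shV. Of 14 measured genes of the hypoxia and glycolysis list, 12 passed 2-fold in that direction and none in the other, with a median log2 ratio of -1.63. The list summed to 2315 CPM in rich spots labelled KPC-shZEB1 and 6014 CPM in those labelled KPC-shV. Vegfa, the vessel growth factor, was at 62.5 CPM (95% interval 57.6 to 67.8) against 373 CPM (363 to 384), a log2 ratio of -2.58. The glucose transporter Slc2a1 was at 127 against 700 CPM and the mitophagy receptor Bnip3 at 37.9 against 195 CPM. Single rich spots held 0 to 2481 CPM of Slc2a1 (median 82.2) in KPC-shZEB1 and 23.8 to 4214 CPM (median 766) in KPC-shV, and 95.5% of the first lay below the median of the second. The ranges overlapped, since a minority of rich spots labelled KPC-shZEB1 reached the high levels.

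In both libraries this list was itself higher in rich than in poor spots. The log2 ratio of the sum was 1.16 in KPC-shZEB1, with 9 of 14 genes higher, and 2.08 in KPC-shV, with 13 of 14 higher. Egln3, an oxygen sensor that hypoxia induces, was at 387 against 63.2 CPM and at 1022 against 131 CPM. Across deciles of the 5-gene sum the list climbed from 1422 to 6014 CPM in KPC-shV, with its steepest part in the upper deciles, and from 1040 to 2315 CPM in KPC-shZEB1.

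Interferon response genes went the other way between the libraries. Of 16 measured genes, 11 were at least 2-fold higher in rich spots labelled KPC-shZEB1 and none was lower, with a median log2 ratio of 1.54 and summed levels of 6065 against 2256 CPM. Cxcl9, a chemokine induced by interferon gamma that draws CXCR3+ T cells, was at 1082 CPM (95% interval 1061 to 1103) against 175 CPM (168 to 182). The guanylate binding protein Gbp2 was at 920 against 159 CPM, and the GTPase Iigp1 at 368 against 69.1 CPM. Ido1, an enzyme of tryptophan breakdown that interferon gamma also induces, was at 108 against 6.35 CPM, a log2 ratio of 4.09 and the third in size among genes past 50 CPM. Its UMIs were found in 86.6% of rich spots and 6.72% of poor spots labelled KPC-shZEB1, and in 17.5% and 5.26% of those labelled KPC-shV. Members at similar levels were Bst2 (log2 ratio 0.11), Oas2 (0.16) and Irf7 (0.21).

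Within the slides, the interferon list was set against the poor spots. In KPC-shZEB1 the log2 ratio of its sum was 0.72, or 0.53 relative to the median gene, with 7 of 16 genes at least 2-fold higher and none lower. In KPC-shV it was -0.15, with 2 genes higher and 2 lower. Rsad2, an antiviral enzyme, led in both, at 3.40 and 1.36. The difference between the libraries in this contrast was not tested.

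**Figure D4:**
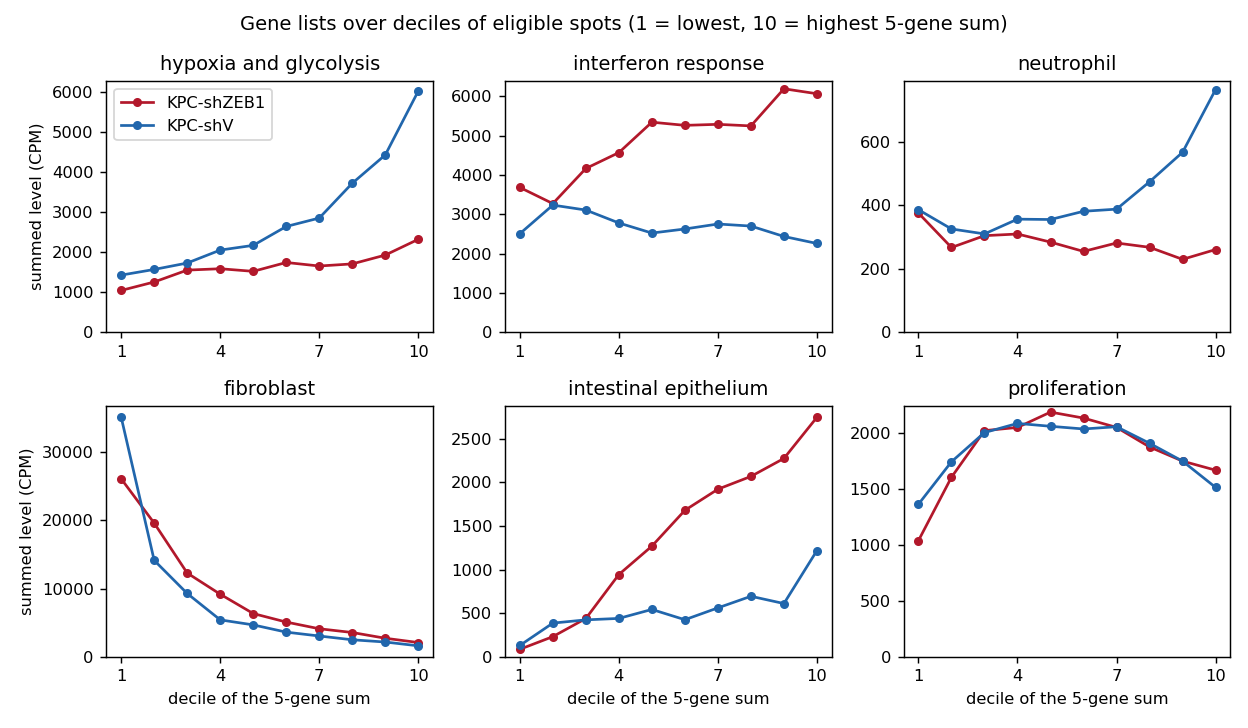
Summed level of 6 gene lists (vertical axes, CPM) over deciles of eligible spots by the 5-gene sum (horizontal axes, 1 lowest and 10 highest), with 1 line per library. The hypoxia and neutrophil lists climb in the upper deciles of KPC-shV (to 6014 and 766 CPM), the interferon list of KPC-shZEB1 reaches 6191 CPM in the ninth and 6065 CPM in the highest decile, and the fibroblast list falls in both.

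Antigen presentation genes were higher in the rich spots labelled KPC-shZEB1. Of 14 MHC class I genes, 7 were at least 2-fold higher, 7 stayed within 2-fold and none passed 2-fold lower. The class I list summed to 12471 against 9054 CPM, a log2 ratio of 0.46. The immunoproteasome subunits Psmb10 and Psmb9 had log2 ratios of 1.94 and 1.72, and the classical heavy chains H2-K1 and H2-D1 had 0.50 and 0.34, while their partner B2m was at 3667 against 3751 CPM. For MHC class II and dendritic cells, 5 of 6 measured genes passed 2-fold. Cd74, the invariant chain of MHC class II, was at 5221 CPM against 1269 CPM, and single rich spots held 327 to 10138 CPM (median 5102) in KPC-shZEB1 and 0 to 5003 CPM (median 875) in KPC-shV. In 74 of the 134 rich spots labelled KPC-shZEB1, Cd74 was above every rich spot labelled KPC-shV. For how many other genes this held is not given. Ciita, the master regulator of MHC class II transcription, was at 73.2 against 16.4 CPM. All of these class II levels were lower than in the poor spots of the same slide, where the list summed to 17618 and 12320 CPM.

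The genes of the T cell list were low in rich spots of both libraries and higher under the KPC-shZEB1 label. Its 12 genes summed to 142 against 21.8 CPM. None of them reached 10 CPM in KPC-shV, so the 6 that were measured passed the filter through KPC-shZEB1 and their number past 2-fold is not read. Of the 6 below 10 CPM in both, Cd8a was at 9.42 against 1.17 CPM and Cd4 at 5.25 against 1.53 CPM. Trbc1, a T cell receptor constant region gene outside the list that was looked at after its values were seen, went the other way, at 13.8 CPM in KPC-shZEB1 against 66.6 CPM in KPC-shV (log2 ratio -2.27), and was alone above the list sum of KPC-shV. The list sum and Trbc1 thus went in opposite directions between the libraries. Within KPC-shV they also differed: the list was at 21.8 CPM in rich and 213 CPM in poor spots, but Trbc1 at 66.6 and 28.2 CPM. Why Trbc1 differed from the listed Trbc2 (29.7 against 3.14 CPM) was not tested. Cd3g, a chain of the T cell receptor complex, had 16.8 CPM and a UMI in 57.5% of rich spots labelled KPC-shZEB1, and 0.80 CPM and a UMI in 3.86% of those labelled KPC-shV. At these depths Cd3g rested on 157 and 11 UMIs. Macrophage genes were higher in part, with 4 of 9 past 2-fold, among them the complement gene C1qc (335 against 137 CPM), whereas Cd68 stood at 118 and 103 CPM. Over all measured genes, 4.3% were at least 2-fold higher.

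Neutrophil genes were higher in the rich spots labelled KPC-shV. Of 7 measured genes, 4 passed 2-fold in that direction, and the list summed to 261 against 766 CPM. The difference in the sum was not seen among rich spots with under 3000 CPM of the hypoxia list, a limit chosen after the data were seen, where the list was at 244 against 243 CPM and the log2 ratio of S100a9 went from -2.54 to -0.50. At or over the limit the list was at -1.36 and S100a9 at -2.53. S100a9, one chain of calprotectin, was at 55.1 against 322 CPM and S100a8, the other chain, at 51.5 against 155 CPM. Single rich spots held 0 to 620 CPM of S100a9 (median 33.9) in KPC-shZEB1 and 0 to 4456 CPM (median 269) in KPC-shV. Within KPC-shV, S100a9 was higher in rich than in poor spots by 2.01 on the log2 scale, and within KPC-shZEB1 it stood at -0.17, a value that ran from -0.75 to 0.83 over the 9 alternatives for the choice of spots and the computation of levels. Chemokines that attract neutrophils were also higher under the KPC-shV label: Cxcl5 was at 270 against 561 CPM and Cxcl1 at 40.4 against 107 CPM. Among rich spots under the same limit of hypoxia genes, their log2 ratios went from -1.05 to -0.28 and from -1.41 to -0.10, and that of Cxcl3 turned from -0.91 to 0.67. At or over the limit, Cxcl5, Cxcl1 and Cxcl3 were at -1.64, -1.83 and -1.59, further from 0 than over all rich spots. Cxcl16, the ligand of Cxcr6 on T cells, did not separate the libraries, with 468 and 428 CPM (log2 ratio 0.13).

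The intestinal genes of the rich spots were higher under the KPC-shZEB1 label, with 5 of 7 past 2-fold, against 4.3% of all measured genes. Among rich spots with under 3000 CPM of the hypoxia list, the log2 ratio of the summed list went from 1.17 to 0.19. Lgals4, which is most of that sum, went from 1.19 to 0.08, whereas Apoa4 was at 2.25 and then 2.79. At or over the limit the list was at 1.51, Lgals4 at 1.72 and Apoa4 at 1.64. Lypd8, outside the list, was at 1.54 over all rich spots, 0.29 under the limit and 1.41 at or over it. The list summed to 2746 against 1218 CPM over all rich spots. Of this, Lgals4, also counted among the surface genes, held 2057 and 901 CPM. Alpi, the intestinal alkaline phosphatase, was at 160 against 42.3 CPM and the apolipoprotein gene Apoa4 at 60.7 against 12.8 CPM. Single rich spots held 73.7 to 8020 CPM of Lgals4 (median 2325) in KPC-shZEB1 and 0 to 6120 CPM (median 210) in KPC-shV, so that 97.0% of the first lay above the median of the second. Outside the list, Lypd8 was at 1121 against 385 CPM, and Krt20 had a log2 ratio of 0.89.

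Some genes of laminin-332, the EGFR family and mechanical and stress signaling were lower in rich spots labelled KPC-shZEB1. Past 2-fold were 3 of 9 laminin-332 and basal contact genes, 3 of 8 EGFR family genes and 4 of 11 YAP and stress targets, none of them in the other direction, and most members of each list stayed within 2-fold. Of all measured genes, 3.69% were at least 2-fold lower. Lama3 was at 278 against 953 CPM, a log2 ratio of -1.78, and Lamb3 at -1.24, while the integrin chain Itgb4 that binds this laminin was at 0.02. The ligands Tgfa, Hbegf and Areg had log2 ratios of -1.41, -1.25 and -1.04, and the receptors Erbb2 and Egfr had 0.01 and 0.17. The YAP targets Ccn1 and Ccn2 stood at -1.88 and -1.10, and the stress-induced factors Atf3 and Jun at -1.33 and -1.08. Among rich spots with under 3000 CPM of the hypoxia list, most of these differences were smaller, with a log2 ratio of the sum that went from -0.72 to -0.34 for the EGFR list and from -0.80 to -0.11 for the YAP and stress list. There Lama3 was at -0.43, Tgfa at -0.33, Areg at -0.20 and Ccn2 at -0.46, while Ccn1 was at -1.06. At or over the limit, the EGFR list was at -0.14, the YAP and stress list at -0.42, Lama3 at -0.88, Ccn2 at -1.13 and Ccn1 at -1.47.

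Mesenchymal effector genes as a list did not separate the libraries, at 4580 against 4558 CPM. The 2 members past 2-fold went in opposite directions: the calcium binding protein gene S100a4 was at 718 against 96.1 CPM and the collagen crosslinking enzyme gene Loxl2 at 52.9 against 133 CPM. The S100a4 level was carried by some of the spots, with a median of 120 CPM and a highest of 4088 CPM among rich spots labelled KPC-shZEB1. The proliferation list had no gene past 2-fold among 15, with 1669 against 1515 CPM and Mki67, a marker of cycling cells, most abundant. Its direction turned once rich spots were split by the hypoxia list. The log2 ratio of the sum was 0.14 over all of them, -0.25 under 3000 CPM and -0.26 at or over it. Among genes of the pathways the study follows, Spp1 was at 5669 against 6758 CPM, its receptor gene Cd44 at 811 against 1316 CPM, and the pore-forming pyroptosis gene Gsdmd at 380 against 182 CPM. The log2 ratio of Gsdmd, 1.06, was 0.28 in rich spots with under 3000 CPM of the hypoxia list and 1.22 at or over it.

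By size, the genes furthest apart in either direction were sought among those past 50 CPM in the higher group of spots. They also had to keep their direction under each alternative for levels. Several of those named rest on few spots or on acinar RNA. The 10 with the largest log2 ratio were Ighj1 (7.82), Igkc (4.79), Ido1, Cela2a (3.79), Ctrl (3.71), 2210010C04Rik (3.57), Mgp (3.48), Gm4841 (3.38), S100a4 (2.90) and Cpa1 (2.89). Ighj1 and Igkc belong to antibodies. Ighj1 rested on 1234 and 8 UMIs, and its log2 ratio was as low as 3.52 under an alternative. In rich spots labelled KPC-shZEB1 Igkc had a median of 34.1 CPM but reached 37565 CPM in 1 spot. Its log2 ratio was as low as 1.86 under an alternative. Cela2a, Ctrl and Cpa1 encode acinar enzymes, and Cela2a and Cpa1 are among the genes that set which spots were eligible. Lower in KPC-shZEB1 were Tnfrsf26 (-2.99), Ptgs2 (-2.91), Uts2 (-2.62), Vegfa, Espn (-2.56), Hilpda (-2.55), S100a9 (-2.54), Slc2a1, Bnip3 (-2.36) and Ccbe1 (-2.31). Ptgs2 encodes the inducible cyclooxygenase, at 27.3 against 206 CPM, and Hilpda a lipid droplet protein that hypoxia induces.

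The rich spots of each library also varied among themselves, and the hypoxia list set them apart. It ran from 788 through a median of 1941 to 15075 CPM in KPC-shZEB1 and from 830 through 7481 to 15104 CPM in KPC-shV. Across the 285 rich spots labelled KPC-shV, the Spearman rho of the hypoxia list was -0.80 with oxidative phosphorylation, -0.72 with proliferation, 0.76 with the EGFR family, 0.67 with laminin-332, 0.65 with neutrophil and -0.45 with interferon genes. Across the 134 rich spots labelled KPC-shZEB1, these were -0.42, -0.30, 0.54, 0.39, 0.09 and -0.33. The points of each set share 1 slide, and their depth moved with the same lists: in KPC-shV, rho with the UMIs of a spot was -0.73 for hypoxia, -0.78 for neutrophil and 0.57 for proliferation genes, against -0.31, 0.33 and 0.16 in KPC-shZEB1. The part of depth in these relations was not tested.

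**Figure D5:**
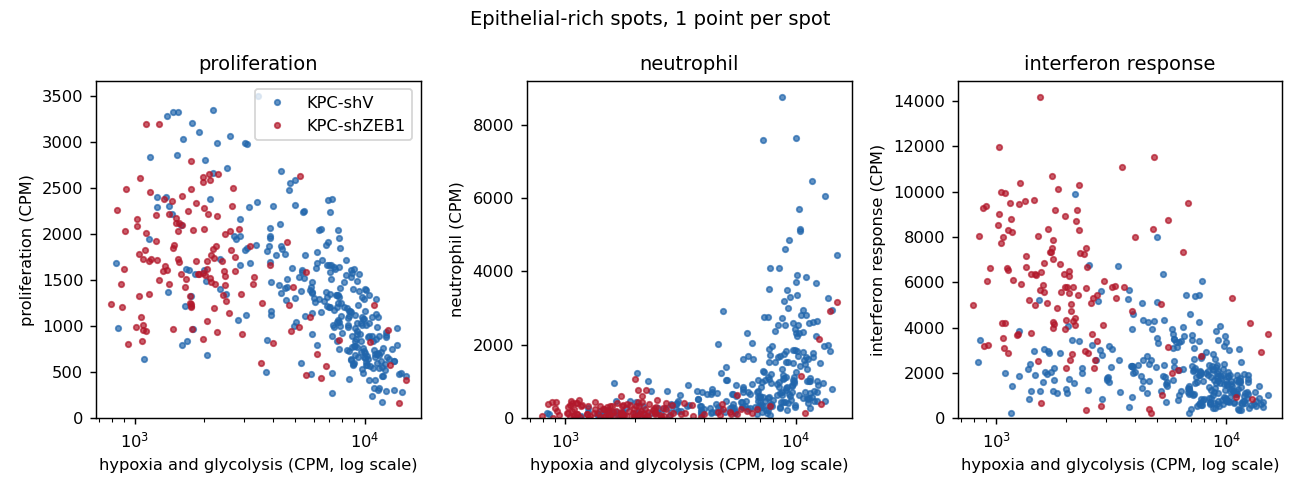
Summed level of the proliferation, neutrophil and interferon lists (vertical axes, CPM) against the hypoxia and glycolysis list (horizontal axes, CPM on a log scale) in each rich spot, blue for KPC-shV and red for KPC-shZEB1. Most KPC-shV spots lie at the right, where neutrophil levels reach 8748 CPM and proliferation levels are low, and most KPC-shZEB1 spots lie at the left.

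Because the hypoxia list differed so widely, the libraries were also compared over rich spots with under 3000 CPM of it, a limit chosen after the data were seen. This kept 108 of 134 rich spots (80.6%) labelled KPC-shZEB1 but 46 of 285 (16.1%) labelled KPC-shV, with median depths of 71967.5 and 70624 UMIs. In these spots the neutrophil list was at 244 against 243 CPM, the intestinal list at 2808 against 2460 CPM and laminin-332 genes at 2186 against 2566 CPM, so that log2 ratios that had been -1.55, 1.17 and -0.75 became 0.00, 0.19 and -0.23. The interferon list kept a log2 ratio of 1.24, at 6210 against 2628 CPM. MHC class II genes were at 1.40 and T cell genes at 2.19. Ido1 was at 112 against 6.77 CPM, close to its ratio over all rich spots. Among the rich spots at or over the limit, 26 and 239, the interferon list stood at 1.28, the neutrophil list at -1.36, the intestinal list at 1.51 and laminin-332 genes at -0.40. Median depths there were 49809 and 42840 UMIs. The split did not make the libraries equal in hypoxia genes. Their list stayed at -0.11 under the limit and -0.32 at or over it. Slc2a1 was at -0.59 and -1.12, whereas Pgk1 was at 0.22 and 0.0051.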

How the data were processed

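Libraries were probe-based Visium CytAssist preparations. The authors mapped them to mm10 with Space Ranger 2.0.1, and the deposited values are raw UMI counts of 19465 features in the spots over tissue. Images and positions were not used, and no doublet step applies to spots. From these counts UMIs were summed and CPM, log2 ratios and exact intervals (Poisson for levels, conditional binomial for ratios) were computed with Python 3.11.15, numpy 2.4.6 and scipy 1.17.1. The computation was tested on simulated data. A ratio against a group at 0 used 3 counts. With 1 library per label, no test was made.

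The members and the 38 gene lists were chosen with earlier results of these data known. Named were the 5 rule genes, the extreme and most abundant genes of each list, and per comparison the 10 genes at either end with at least 50 CPM and 1 direction under every alternative for levels. Other names were chosen after their values were seen. The 11 repeated symbols were left out. Some genes that the rule names are not reported here. Positions are from GENCODE M21 (GRCm38).

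Alternatives for levels were the highest and lowest 5% or 20% of spots, 20000 UMIs per spot, an acinar limit of 0.5%, the mean rank of the 5 genes, spots chosen on 50% of the UMIs and measured on the rest, median-of-ratios scaling, the mean over spots, and leaving out the 5% of spots highest for a gene. Genes per rich spot, thinned to 10000 UMIs, had medians of 4116.5 and 4173 (unthinned 8966 and 8263).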

Additional observations from a re-analysis of the deposited data

Results flagged for a closer look

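The neutrophil list and the interferon list differed in direction between the libraries in the contrast of rich with poor spots. For the neutrophil list the log2 ratio was -0.54 in KPC-shZEB1 and 0.99 in KPC-shV, and for the interferon list it was 0.72 and -0.15. A further 8 single genes, past 2-fold in opposite directions, were picked out after their values were seen. Gzmg, a granzyme, was at 2.37 in KPC-shZEB1 and -3.63 in KPC-shV. The other genes were lower in rich spots of KPC-shZEB1 and higher in those of KPC-shV. They were the collagenase gene Mmp13 (-3.25 and 1.21), Sema3d (-2.18 and 1.42), the trefoil gene Tff2 (-2.55 and 1.04), the T cell receptor gene Trbc1 (-1.99 and 1.24), Acod1, which makes itaconate in myeloid cells (-1.64 and 1.38), the phosphatase gene Dusp9 (-1.10 and 1.64) and G0s2 (-1.15 and 1.12). The opposite directions of Tff2 and Dusp9 depended on the choice of spots: Tff2 in KPC-shV turned to -1.11 with the highest and lowest 20% of spots and to -0.048 with at least 20000 UMIs per spot, and Dusp9 in KPC-shZEB1 turned to 0.15 with 5% of spots. With 1 library per label, none of these differences was tested.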

How the results depend on the processing

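Counts past 2-fold depended on the filter. With 50 CPM in the higher group, the 415 higher and 356 lower genes between libraries became 186 and 169, the 1518 and 1820 of rich over poor spots in KPC-shZEB1 became 899 and 749, and the 1288 and 1996 in KPC-shV became 776 and 888. With no filter the numbers between libraries were 942 and 1951, and the lower genes within them 4830 and 4715. With the highest and lowest 20% of spots, 691 genes were higher in KPC-shV. The log2 ratio of the summed rule genes between libraries, 0.20, was 0.18 with 5% and 0.21 with 20% of spots, 0.21 with an acinar limit of 0.5%, 0.22 by mean rank and 0.23 with median-of-ratios scaling. The mesothelium list turned to -0.96 in KPC-shZEB1 and -1.60 in KPC-shV as a mean of log2 ratios, since Msln carries its sum. The neutrophil list between libraries was 0.0014 in rich spots with under 3000 CPM of the hypoxia list, an alternative added after seeing the data. With 20% of spots, Tff1 turned to -0.87 and -0.82 in KPC-shZEB1 and KPC-shV, and Tff2 to -1.11 in KPC-shV (-0.048 with 20000 UMIs). Dusp9 turned to 0.15 in KPC-shZEB1 with 5% of spots. The cause of these changes was not tested, other than for Msln. Between libraries, the hypoxia list ran from -1.67 to -1.29, the interferon list from 1.34 to 1.61 and the intestinal list from 0.99 to 1.49 over the alternatives fixed for levels. No paired analysis was possible because each group has 1 library.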

Other observations

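Several other gene groups were measured in the rich spots. Of 9 measured chemokines, 2 were at least 2-fold higher and 2 lower in rich spots labelled KPC-shZEB1, against 4.3% and 3.69% of all measured genes. The list sum had a log2 ratio of -0.24. Ccl8 and Ccl5 were higher, at 137 against 28.1 CPM and 99.3 against 21.8 CPM, while both were lower in rich than in poor spots of each library. Of the squamous and basal list, the cornified envelope gene Sprr1a was at 226 and 223 CPM, whereas the basal keratin Krt5 was at 0.43 and 1.10 CPM, and the keratin Krt17, which stress induces, was at 5.25 and 33.9 CPM. Of 9 measured genes of the normal duct list, 6 were at least 2-fold higher and 1 was lower in rich than in poor spots of KPC-shZEB1. Over all measured genes these shares were 14.4% and 17.3%. In KPC-shV, 5 were higher and 1 was lower, against 12.1% and 18.8% of all measured genes. Carbonic anhydrase 2 (Car2) and the bicarbonate transporter Slc4a4 were higher in both, while the secretin receptor Sctr stayed at 1.82 and 1.75 CPM in rich spots. The Wnt target Axin2 and the stem cell receptor Lgr5 were under 2 CPM in rich spots of both libraries. None of 11 measured oxidative phosphorylation genes passed 2-fold between the libraries. The immune checkpoint ligand gene Cd274 (PD-L1) was at 80.8 and 73.7 CPM.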
